A study of Mus musculus with 2 samples.

Results

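The Iroquois homeobox genes Irx1 to Irx6 encode transcription factors and were measured here by total RNA-seq in the embryonic facial prominence, from which the jaws and the rest of the face form, at 15.5 days in the mouse strain B6NCrl. They were chosen by name, and all 6 were found among the 43346 mouse gene identifiers of the tables. The study held 1 group of 2 libraries, labelled biological replicates 1 and 2. Tissue of 78 embryos was pooled for replicate 1 and tissue of 62 for replicate 2, with the sexes mixed and no treatment or mutant allele named. Input was 10 ng of RNA longer than 200 nucleotides, and the expected counts on mouse genes summed to 36048494 in replicate 1 and 36774513 in replicate 2. With 1 group there is no comparison between conditions, so the genes are described by their levels, by the contrast between the clusters and by how far the libraries differed. Pools, not single embryos, are the replicates, and the spread between them may be partly technical.

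Irx proteins are transcription factors of the TALE class, whose homeodomain carries extra residues between its first and second helices, and they also share a short motif called the Iro box. The family was first described in Drosophila, where Iroquois genes prepattern sensory bristles. In mammals the genes lie in clusters of 3 that arose by duplication, Irx1, Irx2 and Irx4 on mouse chromosome 13 and Irx3, Irx5 and Irx6 on mouse chromosome 8, so that Irx1 corresponds to Irx3, Irx2 to Irx5 and Irx4 to Irx6. They act in regional identity of the neural tube, heart, limb and retina, and loss of IRX5 in humans causes Hamamy syndrome, which affects the face and skull.

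The third helix of the homeodomain, which contacts DNA, shows how closely the 6 genes are related. The 54 bases (18 codons) around it are printed 5′ to 3′ on the coding strand from the GENCODE M21 transcripts (GRCm38), with capitals at the positions that differ among the 6 genes.
Irx1: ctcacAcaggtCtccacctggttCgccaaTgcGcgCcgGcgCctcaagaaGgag
Irx2: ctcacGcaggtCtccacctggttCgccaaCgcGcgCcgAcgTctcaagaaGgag
Irx4: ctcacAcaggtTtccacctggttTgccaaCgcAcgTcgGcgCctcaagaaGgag
Irx3: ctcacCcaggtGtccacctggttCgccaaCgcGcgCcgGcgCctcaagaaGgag
Irx5: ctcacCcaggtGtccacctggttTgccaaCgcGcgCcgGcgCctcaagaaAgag
Irx6: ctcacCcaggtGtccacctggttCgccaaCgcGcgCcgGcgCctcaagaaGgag
The stretches lie at chr13:71959998-71960051 (minus strand), chr13:72630793-72630846 (plus strand) and chr13:73267652-73267705 (plus strand) for the chromosome 13 cluster. Those of the chromosome 8 cluster lie at chr8:91800502-91800555 (minus strand), chr8:92359756-92359809 (plus strand) and chr8:92677365-92677418 (plus strand). Each falls within 1 coding exon. Of the 54 positions 45 were the same in all 6 genes, the 9 others each fell on the last base of a codon, and the 6 stretches had 1 translation between them. Irx3 and Irx6 were identical over all 54 bases.

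Over the whole homeobox of 189 bases (63 codons), placed by a script from the third helix, identity between the genes ran from 83.1% to 91.0% in the 15 possible pairs. The pair Irx2 and Irx5 was the most alike at 91.0% and Irx1 and Irx3 came next at 89.4%. Irx3 and Irx6, of the same cluster, followed at 88.9%. Irx4 and Irx6 stood at 87.8%, tied with the cluster mates Irx3 and Irx5 and the cluster mates Irx1 and Irx2. The lowest value, 83.1%, was that of Irx2 and Irx4 within the chromosome 13 cluster and of Irx2 and Irx6 between clusters. Despite this likeness, the counts of Irx1, Irx2, Irx4, Irx5 and Irx6 were whole numbers in both libraries with a deposited posterior SD of 0 counts, so no read was split between those genes and any other gene.

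Irx2 was the most abundant member by TPM (a level scaled by transcript length and by library, so that genes can be compared). It stood at 30.35 TPM in replicate 1 and 28.16 TPM in replicate 2, a mean of 29.3 ± 1.55 TPM (SD, n = 2 here and below), from 1413 and 1328 counts. Both libraries lay above every other member, and the mean placed Irx2 at percentile 76.2 of the 21474 protein coding genes, whose median was 6.10 ± 0.138 TPM. Irx2 (ENSMUSG00000001504) occupies chr13:72628820-72634198 and is the middle gene of its cluster.

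Irx4 (ENSMUSG00000021604), best known for its role in the ventricles of the heart, had 15.48 TPM in replicate 1 and 13.74 TPM in replicate 2 (mean 14.6 ± 1.23 TPM), on 892 and 826 counts at chr13:73260479-73269608. That put it at percentile 63.4 of coding genes. Of 5 genes that mark heart muscle, 3 reached 1 TPM in both libraries, as did 65.4% of all coding genes. The summed levels of the 5 were 16.50 and 11.96 TPM. Among them Nkx2-5 had 9.14 and 6.93 TPM, above the coding median of 6 and 6.195 TPM. The ventricular light chain gene Myl2 had 3.73 and 2.87 TPM and Myl7 1.90 and 1.11 TPM. Myh6 had 1.40 and 0.72 TPM and the atrial peptide gene Nppa 0.33 TPM in each library. Every heart marker was below Irx4 in both libraries, and which cells carried Irx4 was not measured in this bulk RNA, where fewer cells of a type and less RNA per cell cannot be told apart.

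Irx1 (ENSMUSG00000060969), the least abundant member of the chromosome 13 cluster, had 5.43 TPM in replicate 1 and 5.36 TPM in replicate 2 (mean 5.40 ± 0.0495 TPM). The 304 and 313 counts fell on chr13:71957921-71963723. Its level was just under the coding median, at percentile 48.4, and its log2 ratio between libraries was the smallest of the 6 genes.

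Irx3 and Irx5 stood at nearly the same level. Irx3 (ENSMUSG00000031734), a gene of neural tube and limb patterning and of the cardiac conduction system, had 15.92 TPM in replicate 1 and 18.81 TPM in replicate 2 (mean 17.4 ± 2.04 TPM; 979.79 and 1207.86 counts; chr8:91798525-91802067). Irx5 (ENSMUSG00000031737), which acts with Irx3 in limb and heart, had 16.51 TPM in replicate 1 and 18.51 TPM in replicate 2 (mean 17.5 ± 1.41 TPM; 937 and 1096 counts; chr8:92357625-92376286). The authors' credibility bounds, a range deposited beside each TPM value, were 14.6 to 16.6 TPM in replicate 1 and 17.4 to 19.4 TPM in replicate 2 for Irx3. They did not overlap between libraries for Irx3, while those of each other member did. How many of all genes have bounds apart between the libraries was not computed. Irx5 was the higher of the pair in replicate 1 and Irx3 in replicate 2, and the bounds of the genes overlapped in both libraries, so their order is not resolved.

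Irx6 (ENSMUSG00000031738), known from bipolar interneurons of the retina, was the only member under the detection threshold of 1 TPM. It had 0.46 TPM in replicate 1 and 0.38 TPM in replicate 2 (mean 0.420 ± 0.0566 TPM) at chr8:92674288-92680956. The 35 and 32 counts have exact 95% Poisson intervals of 24.4 to 48.7 and 21.9 to 45.2 counts, which cover counting error only. Irx6 had reads in both libraries, and its mean TPM lay at percentile 28.6 of coding genes.

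Thus 5 of the 6 genes were at 1 TPM or more in both libraries, where 65.4% of all protein coding genes were, and all 3 of the chromosome 13 cluster were against 2 of 3 of the chromosome 8 cluster. The order of levels was Irx2, then Irx5 and Irx3, then Irx4, Irx1 and Irx6. Neighbours in that order had library values that did not overlap, except Irx5 and Irx3. The step between Irx3 and Irx4 was small in replicate 1 (0.44 TPM, credibility bounds overlapping) and larger in replicate 2 (5.07 TPM, bounds apart), while Irx4 exceeded Irx1 by 2.71-fold and Irx1 exceeded Irx6 by 12.8-fold in mean TPM.

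**Figure D1:**
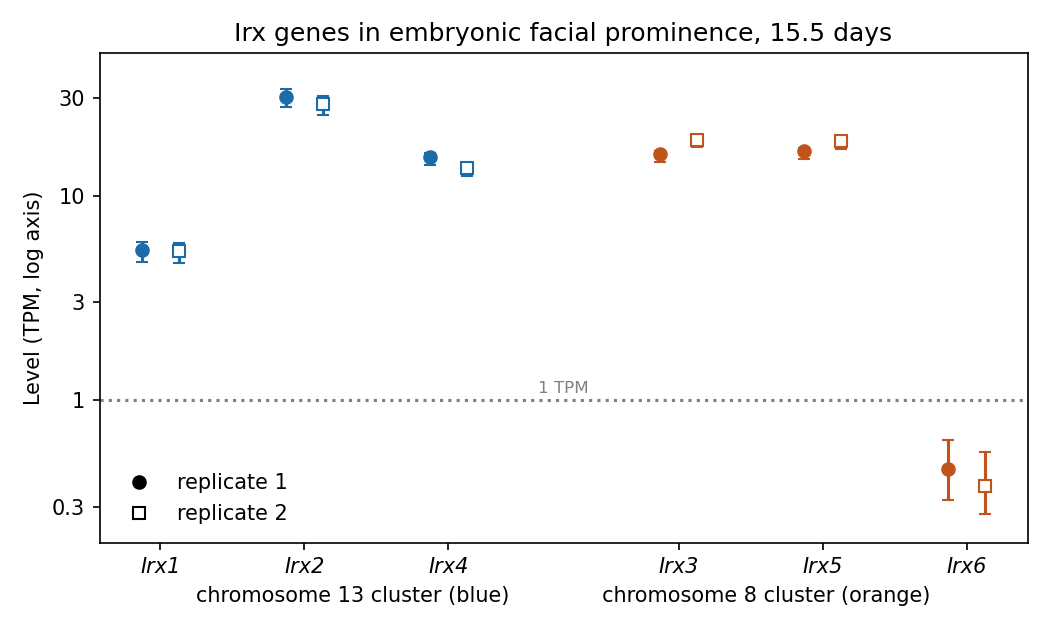
Level of each Irx gene in TPM on a log axis, with filled circles for replicate 1 and open squares for replicate 2 and bars for the authors' credibility bounds. The chromosome 13 cluster spans 5.40 to 29.3 TPM in mean level, and the chromosome 8 cluster holds Irx3 and Irx5 at 17.4 and 17.5 TPM and Irx6 under the dotted line at 1 TPM.

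Set against each other as wholes, the clusters differed less than their members did. The summed level of Irx1, Irx2 and Irx4 was 51.26 TPM in replicate 1 and 47.26 TPM in replicate 2, against 32.89 and 37.70 TPM for Irx3, Irx5 and Irx6. The ratio was 1.56-fold in replicate 1 and 1.25-fold in replicate 2, a mean log2 ratio of 0.48 ± 0.22. The chromosome 13 cluster was the higher in both libraries, at 60.9% and 55.6% of the TPM of all 6 genes. No test was run on the ratio of 2 libraries, and members are not replicates of a cluster.

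The ratio depended on how the members were combined. Without the most abundant member of each cluster the log2 ratio was 0.35 in replicate 1 and -0.00678 in replicate 2 (mean 0.17). The median log2(TPM + 1) of the members was lower for the chromosome 13 cluster, by a mean of -0.22. Without Irx2 alone, which removes the largest term from 1 side only, the mean log2 ratio was -0.82. The total over all 6 genes was close in the libraries, 84.15 and 84.96 TPM, while the split between clusters moved by 0.31 on the log2 scale. Spike-ins took 6.42% of the TPM in replicate 1 and 10.1% in replicate 2, which lowers the total in replicate 2 more and leaves the split unchanged.

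The clusters divided their output among members in different ways. On chromosome 13 Irx2 took 59.2% of the cluster's TPM in replicate 1 and 59.6% in replicate 2, Irx4 30.2% and 29.1%, and Irx1 10.6% and 11.3%. On chromosome 8 Irx5 took 50.2% and 49.1%, Irx3 48.4% and 49.9%, and Irx6 1.40% and 1.01%. The shares within each cluster differed between libraries by under 2 percentage points for every gene, although the clusters' totals went opposite ways. From the lowest to the highest member the span was 5.42-fold on chromosome 13 and 41.7-fold on chromosome 8.

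Comparing genes at the same place in each cluster, the first genes favoured chromosome 8 and the other genes favoured chromosome 13. Irx1 was lower than Irx3, with a log2 ratio of -1.55 in replicate 1 and -1.81 in replicate 2 (mean -1.68 ± 0.18). Irx2 was higher than Irx5, by 0.88 and 0.61 (mean 0.74 ± 0.19). The widest gap lay between the last genes, where Irx4 was 33.7-fold and 36.2-fold above Irx6 (mean log2 ratio 5.12 ± 0.07). The credibility bounds of the genes were apart for all 3 pairs in both libraries. Irx2 and Irx5 were the closest in level of these 3 pairs, 1.67-fold apart in mean TPM. Over all members they were not the closest, since Irx5 and Irx3 were 1.01-fold apart.

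**Figure D2:**
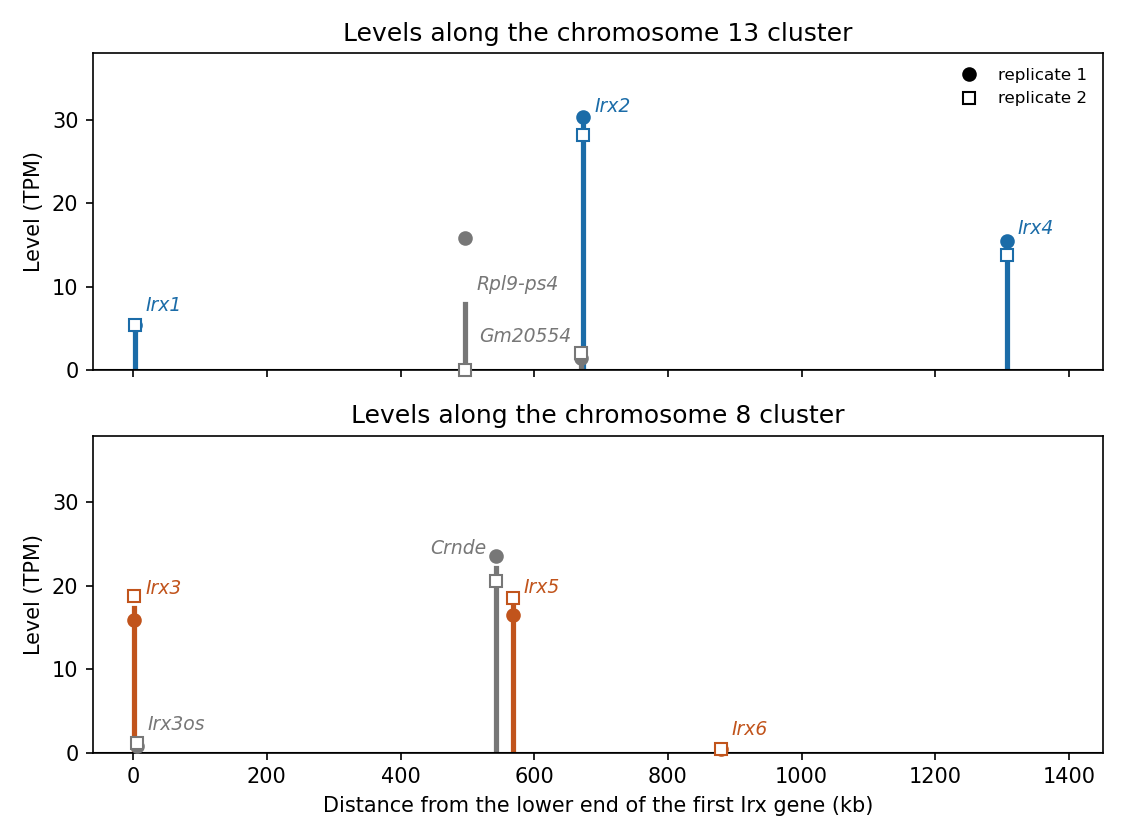
Levels in TPM along each cluster, at the midpoint of each gene in kb from the lower end of its first Irx gene, with stems to the mean, filled circles for replicate 1 and open squares for replicate 2. Noncoding genes with a mean of 0.5 TPM or more are grey. Irx2 and Irx4 stand above Irx1 on chromosome 13, Crnde is the highest gene of the chromosome 8 cluster, and Rpl9-ps4 has reads in replicate 1 only.

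The transcripts behind each level bear on the place of Irx2. Irx1 and Irx5 each had 1 transcript in the tables. Of 5 for Irx2, the leading one, of 2625 nucleotides, took 66.7% of the gene's TPM in replicate 1 and 64.0% in replicate 2, but 89.2% and 88.1% of its counts. A short one of 559 nucleotides, annotated as protein coding, took 17.7% and 19.9% of TPM on 60.89 and 66.12 counts. One of 927 nucleotides, annotated as a retained intron, took 14.2% and 14.7% on 87.73 and 88.27 counts. Short transcripts weigh more in TPM per read, and the bounds of the 559-nucleotide transcript were wide, 2.37 to 8.33 TPM in replicate 1 and 2.20 to 8.64 TPM in replicate 2.

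Counted by leading transcripts alone, Irx2 had 20.25 TPM in replicate 1 and 18.03 TPM in replicate 2, against 16.51 and 18.51 TPM for Irx5. Irx2 was then 1.23-fold above Irx5 in replicate 1 and at 0.974-fold in replicate 2, so the lead of Irx2 did not hold in replicate 2 on that measure. With all counts of each gene set over the length of its leading transcript, Irx2 stayed above Irx5 by 1.38-fold and 1.11-fold. The summed cluster ratio shrank likewise, to a mean log2 ratio of 0.02 for leading transcripts (0.18 in replicate 1 and -0.13 in replicate 2) and 0.25 for all counts over leading lengths.

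The other members had simpler makeups. The Irx4 transcript of 2384 nucleotides took 73.8% and 73.4% of the gene's TPM, and that of 2589 nucleotides, which starts 18 bases away, took 26.1% and 26.6%. The Irx3 transcript of 2597 nucleotides took 100% in replicate 1 and 94.8% in replicate 2, where that of 2610 nucleotides had 63.27 counts. For Irx6 the split between the transcripts of 3370 and 2829 nucleotides was 69.3% to 30.7% in replicate 1 and 100% to 0% in replicate 2, from 35 and 32 counts, and the bounds of each transcript overlapped between libraries.

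**Figure D3:**
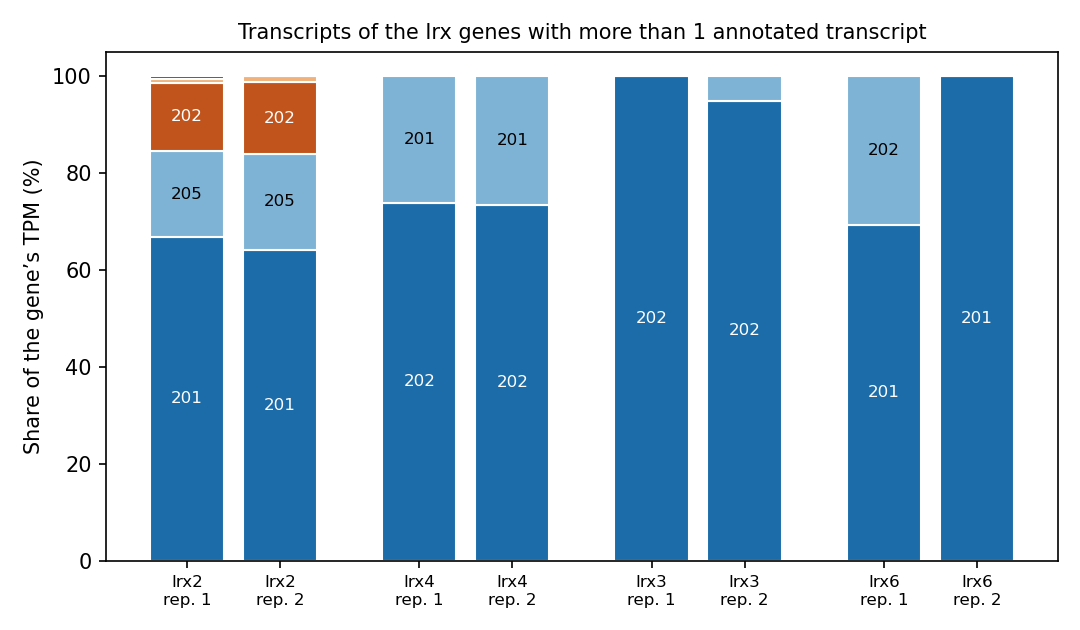
Share of each gene's TPM taken by each transcript in replicate 1 and replicate 2 for Irx2, Irx4, Irx3 and Irx6, labelled by transcript number with the leading transcript at the bottom. Irx4 keeps the same split in both libraries, the leading transcript of Irx2 takes 66.7% and 64.0%, and the shares of Irx6 rest on 35 and 32 counts.

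Noncoding genes accompany 3 members. Between the outermost Irx genes or overlapping them, the annotation places 10 noncoding genes or pseudogenes on chromosome 13, of which 2 were in the tables, and 14 on chromosome 8, of which 7 were. Each cluster's middle gene has a long noncoding RNA gene starting upstream on the other strand. Crnde, whose annotated start lies 1505 bases from that of Irx5 in GENCODE M21, had 23.60 TPM in replicate 1 and 20.62 TPM in replicate 2 (22.1 ± 2.11 TPM, 377 and 367 counts), against 16.51 and 18.51 TPM for Irx5. Gm20554, which starts 256 bases from Irx2, had 1.42 TPM in replicate 1 and 2.00 TPM in replicate 2 on 26 and 38 counts, against 30.35 and 28.16 TPM for Irx2.

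Over all its transcripts Crnde exceeded Irx5 by 1.43-fold and 1.11-fold, and its credibility bounds were apart from those of Irx5 in replicate 1 and overlapped them in replicate 2. Gm20554 was at 0.0468-fold and 0.0710-fold of Irx2. Within Crnde, the transcript annotated at the bidirectional promoter, 1238 nucleotides long, took 15.5% and 17.8% of TPM. The leading transcript, of 813 nucleotides, took 43.2% and 49.9% and starts 10879 bases from the start of the Irx5 transcript. The 5 Crnde transcripts that start within 2 kb of it summed to 10.65 TPM in replicate 1 and 7.78 TPM in replicate 2. The 2 transcripts with distant starts summed to 12.94 and 12.83 TPM. Each group alone was below Irx5 in both libraries, so the higher level of Crnde depended on both together. In counts, which are not per length, Crnde was below Irx5, at 377 and 367 against 937 and 1096.

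The promoter windows of these divergent pairs are printed from RefSeq (GRCm38.p6), 300 bases each around the RefSeq start, 5′ to 3′ on the strand of the named gene, with capitals for matches to the GC box GGGCGG or the box CCAAT on either strand. The window of Irx2, at chr13:72628570-72628869 on the plus strand, spans nearly all the space between the starts of Irx2 and Gm20554. That of Crnde, on the side facing Irx5, is chr8:92356071-92356370 on the minus strand.
Irx2: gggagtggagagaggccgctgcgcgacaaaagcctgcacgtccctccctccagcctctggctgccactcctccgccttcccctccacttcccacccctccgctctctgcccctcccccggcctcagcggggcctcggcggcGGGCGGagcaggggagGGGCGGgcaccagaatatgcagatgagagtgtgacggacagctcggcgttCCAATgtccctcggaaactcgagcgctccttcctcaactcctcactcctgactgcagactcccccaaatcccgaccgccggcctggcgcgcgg
Crnde: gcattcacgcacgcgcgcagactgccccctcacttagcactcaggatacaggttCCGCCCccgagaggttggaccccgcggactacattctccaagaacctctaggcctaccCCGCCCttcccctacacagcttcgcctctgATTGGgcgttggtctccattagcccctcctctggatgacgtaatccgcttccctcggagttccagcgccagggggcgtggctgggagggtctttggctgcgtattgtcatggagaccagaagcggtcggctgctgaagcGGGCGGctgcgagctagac
The window of Irx2 held 25 CG dinucleotides, 2 matches to GGGCGG and 1 to CCAAT, and that of Crnde 22, 3 and 1. Of the 32851 RefSeq promoter windows of this length, whose median was 7 CG dinucleotides, 35.7% held GGGCGG, 37.4% held CCAAT and 13.6% held TATAAA, which was in neither window. The window of Irx4 held 31 CG dinucleotides and that of Irx3 14, so all 4 windows were above the median. These are matches of letters and not measured binding.

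Irx3os, annotated antisense to Irx3 with 1653 shared bases of genome, had 0.82 TPM in replicate 1 and 1.12 TPM in replicate 2 (53.21 and 58.14 counts), against 15.92 and 18.81 TPM for Irx3. Counts of Irx3 and Irx3os were fractional but summed to whole numbers, 1033 and 1266, so a few reads were divided between these genes alone, with a posterior SD of 0.43 and 0.39 counts. The strand setting of the counting is not given in the sources used here, so reads of Irx3 and Irx3os cannot be told apart with certainty. On chromosome 13 the pseudogene Rpl9-ps4 had 187.52 counts in replicate 1 and 0 in replicate 2. Its values are uncertain, since reads can be shared with Rpl9 and its other copies. Gm28511, Gm28516 and Gm24254 were at 0 in both libraries, and Gm28515 and Gm21817 were at 3 counts or fewer.

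The clusters sit in wide intervals with few other genes. Irx1 and Irx2 are 665 kb apart and Irx2 and Irx4 626 kb, while Irx3 and Irx5 are 556 kb apart and Irx5 and Irx6 298 kb. Within 1 Mb outside the chromosome 13 cluster lay 18 coding genes in the tables, all on the side of Irx4. Of these, 13 were at 1 TPM or more in both libraries, as were 65.4% of all coding genes. The 13 were Ndufs6, Mrpl36, Lpcat1, Clptm1l, Tert, Slc12a7, Nkd2, Trip13, Brd9, Tppp, Cep72, Exoc3 and Ahrr, and the others were Slc6a3, Slc6a18, Slc6a19, Zdhhc11 and Slc9a3. The nearest, the complex I subunit gene Ndufs6 and the mitochondrial ribosomal protein gene Mrpl36, stood at 294 ± 7.42 and 99.9 ± 1.80 TPM. The side of Irx1 held no annotated coding gene within that distance.

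Around the chromosome 8 cluster 18 flanking coding genes were in the tables. Of these, 10 reached 1 TPM in both libraries, as did 65.4% of all coding genes. All 5 on the side of Irx3 did, Chd9, Rbl2, Aktip, Rpgrip1l and Fto. Among them stood Fto, whose introns hold enhancers that act on Irx3, at 82.6 ± 6.98 TPM and the cilium gene Rpgrip1l at 7.43 ± 0.976 TPM. On the side of Irx6, 5 of 13 did, Mmp2, Lpcat2, Capns2, Slc6a2 and Ces1d. Mmp2, the gelatinase gene next to Irx6, stood at 241 ± 5.07 TPM, far above its neighbour, while the carboxylesterase genes Ces1a, Ces1b, Ces1c, Ces1e, Ces1f, Ces1g, Ces1h and Ces5a were under 1 TPM and Ces1d stood at 6.88 ± 2.66 TPM.

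Irx2 and Irx4 were slightly lower and Irx3 and Irx5 slightly higher in replicate 2 than in replicate 1, except with spike-in scaling, where all were lower. After scaling by the trimmed mean of M values (TMM), log2 of replicate 2 over replicate 1 was -0.15 for Irx2, -0.17 for Irx4 and -0.02 for Irx1, against 0.24 for Irx3, 0.17 for Irx5 and -0.18 for Irx6. The counting interval of the ratio (exact, 95%, counting error only) excluded 0 for Irx2, Irx4, Irx3 and Irx5, and included it for Irx1 and Irx6. How many of all genes have an interval that excludes 0 was not computed. Irx2, Irx4, Irx3 and Irx5 had 826 counts or more in each library, against 313 or fewer for Irx1 and Irx6. Irx6 had the widest interval, -0.93 to 0.54. None of the 6 was 1.5-fold or more apart, against 9.08% of the 18318 genes that reached 10 counts in each library, and the median size of the ratio over those genes was 0.12. All 3 chromosome 13 genes were below 0, as were 49.9% of all genes, and 2 of the 3 chromosome 8 genes were above 0, as were 50.1%. These signs held with DESeq2 size factors, Irx1 turned to 0.01 with total counts as the scale, and scaling by spike-in counts moved the median of all genes to -0.65 and put all 6 members below 0, with 4 of them 1.5-fold or more apart as were 65.6% of all genes. Relative to that median Irx3 was at 0.24 and Irx5 at 0.16, and the other 4 members were below 0.

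**Figure D4:**
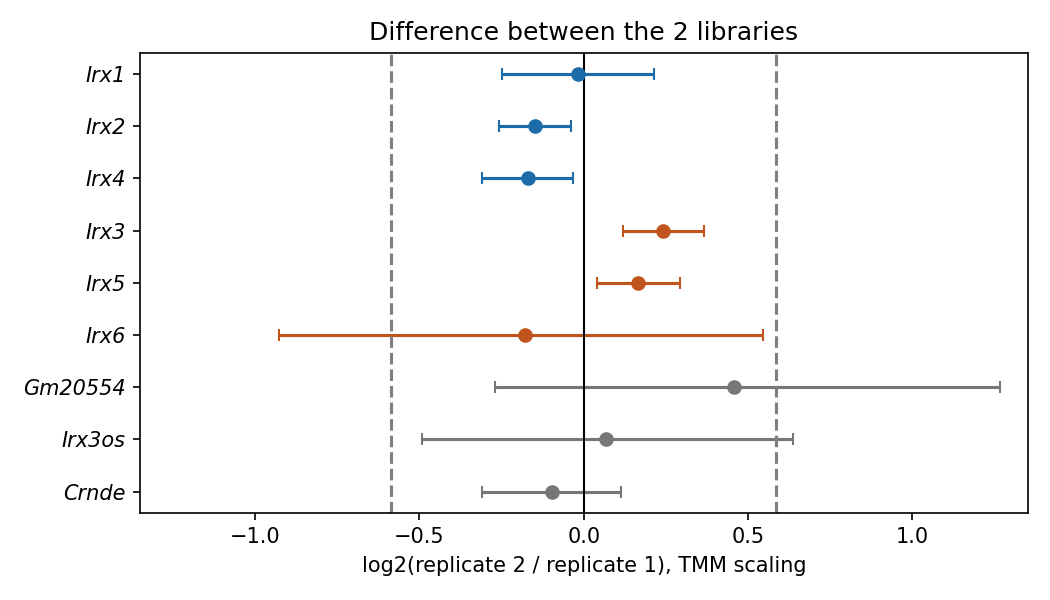
log2 ratio of replicate 2 over replicate 1 after TMM scaling for the Irx genes and 3 noncoding neighbours, with exact counting intervals and dashed lines at 1.5-fold. Irx2 and Irx4 lie below 0 and Irx3 and Irx5 above it (below it with spike-in scaling), all inside the dashed lines, and the intervals of Irx6, Gm20554 and Irx3os each cross one of these lines.

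Markers of several cell types also differed between the libraries. The summed level of 4 cartilage markers was 252 TPM in replicate 1 and 433 TPM in replicate 2, that of 4 skeletal muscle markers 1458 and 1108 TPM, and that of 5 markers of surface and oral epithelium 1994 and 1772 TPM. The epithelial sum followed the keratin genes Krt14 (1005 and 887 TPM) and Krt5 (793 and 682 TPM), while the list's median was 81.84 TPM in replicate 1 and 87.33 TPM in replicate 2. Summed levels of 5 facial mesenchyme markers were 316 and 335 TPM. Those of 4 osteoblast markers were 657 and 731 TPM, of which Ibsp took 576 and 667 TPM. Sp7, Runx2 and Bglap were each lower in replicate 2 by TPM. By counts Bglap was lower (227.61 and 120.73), but Sp7 (1950 and 1961) and Runx2 (1712.86 and 1809.51) were not. Sums were 84.8 and 87.6 TPM for 4 neuron markers and 80.7 and 79.3 TPM for 3 endothelium markers. All these levels are deposited TPM without TMM scaling. Spike-ins, at 6.42% and 10.1% of TPM, lower the values in replicate 2 more. Every marker of these 7 lists, those of facial mesenchyme and epithelium included, reached 1 TPM in both libraries, as did 65.4% of all coding genes. Forebrain markers were low, where 0 of 3 did so, with sums of 1.22 and 1.14 TPM, as were lung epithelium markers, where 1 of 3 did, with sums of 1.38 and 1.19 TPM, where Nkx2-1 was at 0 in both libraries. The part of these differences in the ratios of the Irx genes was not tested.

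The median of the 6 Irx genes was 15.70 TPM in replicate 1 and 16.12 TPM in replicate 2. It was 23.49 and 21.25 TPM for a list of 12 other TALE genes (Tgif, Meis, Pbx and Pknox genes and Mkx). All 12 reached 1 TPM in both libraries, as did 65.4% of all coding genes. Only Irx2 was above the median of that list. Its highest members were the repressor genes Tgif1 at 57.5 ± 1.45 TPM and Tgif2 at 41.0 ± 1.17 TPM and the cofactor gene Meis1 at 40.2 ± 2.74 TPM. The Mohawk gene Mkx, a tendon regulator, stood at 15.8 ± 0.665 TPM, between Irx4 and Irx3 by mean. In replicate 1 it was above Irx3, at 16.30 against 15.92 TPM.

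Of 11 genes reported as partners or targets of Irx proteins, 10 were at 1 TPM or more in both libraries, as were 65.4% of all coding genes. The median of the 11 was 17.1 ± 2.20 TPM. The highest were the gap junction gene Gja1 at 266 ± 5.44 TPM, the chemokine gene Cxcl12 at 208 ± 2.98 TPM and the GATA-type repressor gene Trps1 at 77.1 ± 10.4 TPM. Gata3, whose product was reported to bind IRX5 in humans, stood at 41.6 ± 1.31 TPM. The potassium channel gene Kcnd2, reported to be repressed by Irx5 in mouse heart, was the only member under the threshold, at 0.80 TPM in replicate 1 and 0.75 TPM in replicate 2. Of 5 signalling genes reported upstream, Bmp4 at 28.0 ± 1.46 TPM and Gli3 at 18.9 ± 1.18 TPM were within the range of the abundant Irx genes. Wnt3a stood at 2.35 ± 0.460 TPM and Shh at 2.12 ± 0.417 TPM, and Fgf8, at 0.16 and 0.11 TPM, was not detected by the threshold.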

How the data were processed

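Total RNA-seq libraries of 1 group were analysed. Per the file headers, the authors deposited for each library an expected count, TPM and FPKM per gene and per transcript, posterior means of TPM, and the percent of a gene's TPM taken by each transcript. Per the text deposited with the samples, reads were assigned to the mm10 transcriptome with annotation M4, each library by itself. For the aligner, the quantification program and the strand setting nothing is given in the sources used here. Credibility bounds, a deposited score in TPM whose level is not printed in the tables, were copied as they stand. The deposited TPM also covers spike-ins and numbered sequences, and spike-ins took 6.42% and 10.1% of it, which lowers gene values in replicate 2 more.

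Names came from GENCODE M21 (GRCm38), where 42462 of 43346 identifiers were found. Gene spans are from M21 and can be wider than those counted under M4, as for Irx5. Counts were rounded for ratios. R 4.3.3 with edgeR 4.0.16 gave TMM factors (0.989, 1.01) and log ratios at a prior count of 2. DESeq2 1.42.0 gave other size factors. Other steps used Python 3.11.15, numpy 2.4.6, pandas 2.3.3, scipy 1.17.1, matplotlib 3.10.9 and Biopython 1.88. Homeoboxes were placed by translating each leading transcript and finding the conserved DNA-contacting helix. Detection meant at least 1 TPM in each library. Irx6 had the fewest counts of the members, and 1 read on it was worth 0.0131 and 0.0119 TPM.

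The members and lists were chosen with earlier results of these data known. All 6 members are named, with noncoding genes between the outermost members, coding genes within 1 Mb, and the 3 highest genes of each list. Marker lists are given as sums, with genes of the heart list in full. A further marker list is not reported here. Other genes of these lists that are named were chosen after their values were seen. Likeness of pattern was not computed, since 2 libraries of 1 group hold no pattern to match.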

Additional observations from a re-analysis of the deposited data

How the results depend on the processing

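The number of Irx genes at 1 TPM or more stayed at 5 under every threshold, estimate and left-out library tried. The log2 ratio of the chromosome 13 over the chromosome 8 cluster, 0.48, was 0.88 as a difference of mean log2(TPM + 1), 1.30 as a difference of mean log2(TPM + 0.1), 0.25 with expected counts and 0.17 without the most abundant member of each cluster. It reversed to -0.22 with medians. Alternatives chosen after seeing the data gave -0.82 without Irx2, 0.0235 with leading transcripts only and 0.25 with all counts over leading lengths. Irx2 is the highest member, so its removal lowers the sum by construction, and the cause of the other shifts was not tested. Leaving out 1 library gave 0.33 to 0.64 for the clusters, -1.81 to -1.55 for Irx1 over Irx3, 0.61 to 0.88 for Irx2 over Irx5 and 5.07 to 5.18 for Irx4 over Irx6.

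Irx2 over Irx5, 0.74, was 0.43 with expected counts and, chosen after seeing the data, 0.13 with leading transcripts and 0.30 with all counts over leading lengths. Irx4 over Irx6, 5.12, was 5.01 with posterior means, 4.82 and 3.46 with pseudocounts of 0.1 and 1, which shrink ratios of low genes by construction, and 4.68 with expected counts. Irx1 over Irx3 moved by less than its SD under each of these settings that was tried for it. The number of members 1.5-fold apart between libraries was 0, and 4 with spike-in scaling, where 65.6% of all genes were that far apart. No paired analysis was possible because the study has 1 group, so no groups share replicate numbers, and contrasts between genes were taken within each library. With 32 to 35 counts, Irx6 is limited by depth.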
